A study of Mus musculus with 32 samples.

Results

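CD8 T cells recovered from syngeneic transplant recipients were compared with CD8 T cells taken before transplant, 3 libraries against 2. Their sample titles name them as CD8 cells of a syngeneic recipient or of day 0, and they make up 5 of the 31 libraries with RNA values. The study transferred T cells of C57Bl6 mice in a major mismatch model of graft-versus-host disease and sorted CD4, CD8 and regulatory T cells (Treg) for bulk RNA and T-cell receptor (TCR) sequencing. The pretransplant group (day 0) has 1 library with the label prefix JL019 and 1 with JL027, and the syngeneic group, labelled as untreated controls, has JL019 libraries 1 and 2 and 1 JL027 library. All 5 came from spleen and lymph nodes. The recipient titles give day 6, and the design text of the series gives 8 days. Recipients' conditioning, sex and age, whether animals were pooled, and how many donors fed a day 0 library are not given in the sources used here. The p-values for genes and for V segments of the TCR rest on the spread between libraries within all 10 groups of the series. That spread comes from 31 libraries and not from these 5 alone. The allogeneic CD8 group set beside them has 4 libraries from untreated Balb/c recipients of C57Bl6 cells, and the CD4 groups match the 5 CD8 libraries in prefix and number. How donor cells were told from cells that a syngeneic host still had is likewise not given in the sources used here.

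T cells placed in a host with few lymphocytes divide without foreign antigen, a process called homeostatic expansion. It is driven by interleukin-7 and interleukin-15, which signal through the common gamma chain and STAT5, and by weak TCR contact with self peptides. CD8 cells respond more readily than CD4 cells to interleukin-15, and dividing cells are known to take on surface markers and effector genes of memory cells. A syngeneic host supplies this space and these cytokines without the alloantigen that drives graft-versus-host disease.

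The values are read counts that the authors normalised between libraries, and their read depth is unknown. Values below are normalised read counts, given in the order JL019, JL027 at day 0 and JL019-1, JL019-2, JL027 in syngeneic recipients. Cd8a, the coreceptor chain that defines the lineage, was at 23173 and 31914 before and 42077, 33817 and 61114 after transfer. Cd8b1 was at 50321 and 68117 and at 77253, 61579 and 122919. Neither chain passed the test, and both were far above Cd4, which lay between 17.7 and 92.8 in the 5 libraries, and Foxp3, the Treg factor, which was at 9.68 and 6.82 and at 0, 3.52 and 0. The principal component with the most variance over the 5 libraries held 63.0% of it and separated both day 0 libraries from all 3 syngeneic ones, and the day 0 JL019 library lay farthest from the centre.

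The libraries also differed in RNA of other cells. For the marker counts that follow, 13.0% of all genes tested rose and 11.3% fell between day 0 and syngeneic CD8 cells. At day 0 the plasma cell gene Jchain was at 18246 and 29108, against 267, 153 and 269 after transfer, and the summed level of 5 plasma cell markers, of which 4 fell, lay between 20794 and 32089.8 at day 0 and between 2581 and 3391 after transfer. Of 11 measured B cell markers 8 fell and none rose, with sums between 58991 and 69226 at day 0 and between 20942 and 28063 after transfer. Most of each sum was the immunoglobulin gene Ighm (54071 and 62814, then 22394, 18468 and 24845). Cd79b (1082 and 1610, then 1240, 931 and 1804) was not called. Cd79a went from 247 and 316 to 6.68, 5.87 and 16.4. Of 9 erythroid markers 4 fell, with sums between 32039.5 and 36283 and then between 3351 and 11185 and with Klf1 at 1513 and 1660.3 and then 109, 67.9 and 259.8. Of 15 myeloid markers 3 rose and none fell, with sums between 9299 and 10432 at day 0 and between 44448 and 68667 after transfer: Cebpb, S100a8 (215 and 427, then 14812, 19903 and 26331) and S100a9 (178 and 308, then 12034, 16876 and 21030.0). None of the defining markers Cd79a, Jchain, Klf1 and S100a8 was at 0 in any of the 5. Their part in the results below was not tested. Fewer cells of a type and less RNA per cell cannot be told apart in bulk samples.

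Y-linked genes differed between libraries of 1 prefix. Ddx3y was at 9.93 and 2.71 at day 0 and at 3.31, 7.08 and 912 in syngeneic recipients, and Eif2s3y was at 16.3 and 6.07 and at 0.761, 5.31 and 3074. Kdm5d was at 459.7 and 135 and at 71.5, 115 and 908, and Uty at 160.0 and 35.3 and at 25.5, 30.4 and 392. The syngeneic JL027 library was highest in all 4 genes, by a wide margin in Ddx3y and Eif2s3y and by a smaller one over day 0 JL019 in Kdm5d and Uty. Donor cells of another animal and male cells of the host cannot be told apart as the source, so prefixes are not taken as shared donors below. The CD4 libraries showed the same split, with Ddx3y at 0.717 at day 0 and 1617 in the syngeneic JL027 library. With the JL019 libraries alone, 591 genes passed the test, and with JL027 alone 478. Day 0 then has 1 library, as has the JL027 syngeneic group, and the spread in these fits comes from the other groups of the prefix, which the lone libraries are assumed to share.

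Between day 0 and syngeneic recipients 4053 of 16741 genes changed, 24.2% of those tested (limma on log2 of the value plus 1, adjusted p under 0.05). Of these, 2169 were higher (13.0%) and 1884 lower (11.3%) in syngeneic recipients, and the median change over all genes was -0.10 on the log2 scale. The count fell to 1001 without the day 0 JL019 library (623 higher, 378 lower). It was 2612 without syngeneic JL019-1 (1532 and 1080) and 2123 without syngeneic JL027 (1189 and 934). Without day 0 JL027 it was 3937 (1821 and 2116), and without syngeneic JL019-2 4869 (2569 and 2300). List counts below for fits without 1 library are to be set beside these counts over all genes. Syngeneic and day 0 values were fully separate for 51.5% of genes, with 26.0% above and 25.5% below day 0.

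The rising genes with the lowest p-values were Pimreg, Gzmb, Tcf19, Bspry, Asf1b, Mxd3, Ifng and Vim. Pimreg, a mitotic regulator, was at 37.1 and 32.5 at day 0 and at 1025, 722 and 1021 in the syngeneic libraries (log2 change 4.67 ± 0.25 SE, adjusted p = 1.11e-12). Gzmb, the cytotoxic protease granzyme B, went from 236 and 363 to 16202, 11542 and 21999 (log2 change 5.77 ± 0.32 SE, adjusted p = 1.83e-12). The named rising and falling genes were chosen among those whose groups do not overlap. Tcf19, a gene of late G1, went from 441 and 495 to 4293, 3246 and 4229 (log2 change 3.06 ± 0.18 SE, adjusted p = 4.62e-12). The histone chaperone Asf1b rose by 2.81, the Myc network repressor Mxd3 by 3.87, Bspry by 4.57, Ifng by 4.77 and the filament gene Vim by 2.37 on the log2 scale. Each of these 8 changes was called under all 21 alternative analyses.

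The falling genes with the lowest p-values were led by Scin, which encodes an actin-severing protein and was at 365 and 322 at day 0 and at 7.56, 10.8 and 5.29 after transfer (log2 change -5.32 ± 0.44 SE, adjusted p = 4.36e-09). Ell2, an elongation factor known for its role in plasma cells, went from 325 and 421 to 30.1, 18.7 and 37.3 (log2 change -3.70 ± 0.32 SE, adjusted p = 7.06e-09). Cd81, a tetraspanin of the B cell coreceptor that T cells also carry, went from 824 and 1065 to 64.2, 69.9 and 153. Nqo1, a quinone reductase, fell by 3.85 on the log2 scale, Septin8 by 3.66 and the corepressor gene Tle1 by 2.52. Plasma cell and erythroid markers fell with them, as given above.

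**Figure D1:**
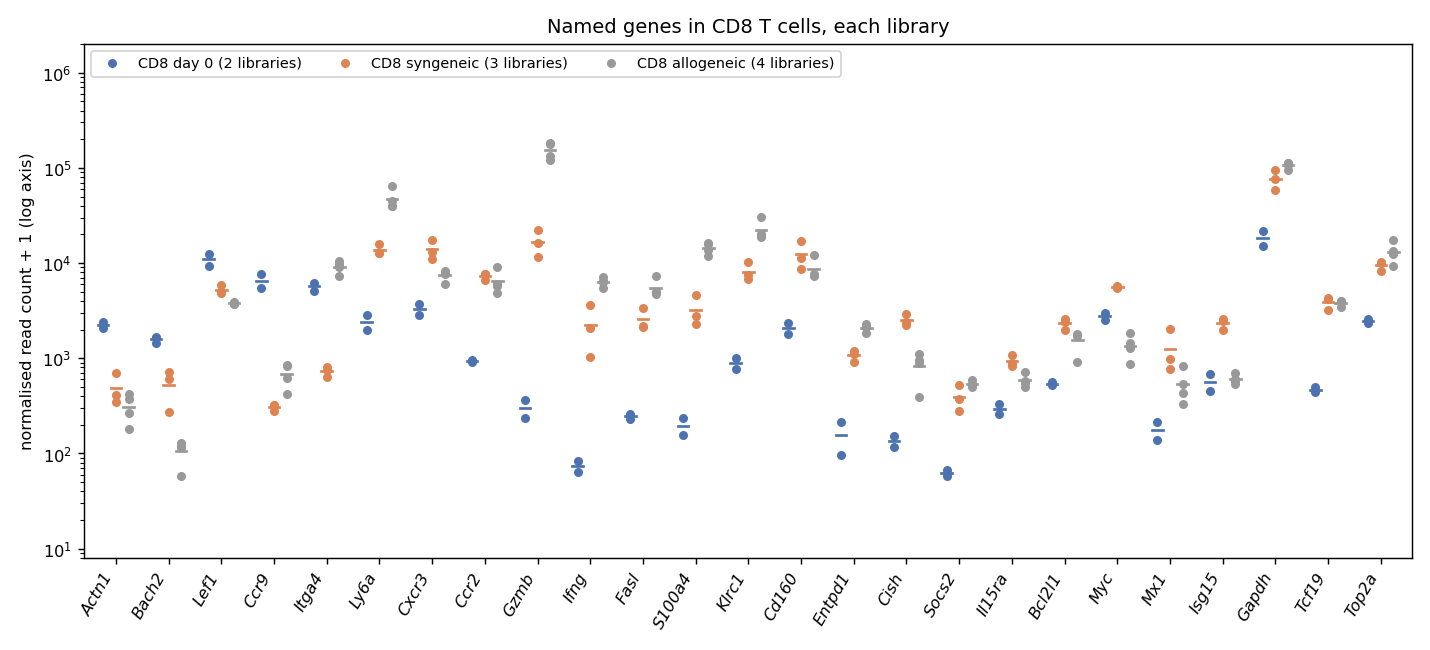
Normalised read count plus 1 (log axis) of 25 named genes in the 2 day 0, 3 syngeneic and 4 allogeneic CD8 libraries, with short lines at the means. Gzmb, Ifng, S100a4 and Cish stand well above day 0 in the syngeneic libraries, Ccr9 and Itga4 well below, and Itga4 is high again in the allogeneic libraries.

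Cell cycle genes rose as a group. Of 30 mitosis genes 27 rose and none fell, with a median log2 change of 1.67, where 13.0% of all genes rose and 11.3% fell. Of 31 DNA replication genes 22 rose and none fell, with a median of 1.30. All 61 estimates were positive. Without the day 0 JL019 library, 22 and 14 of them were called. Top2a, the topoisomerase that untangles replicated DNA, was at 2578 and 2327 at day 0 and at 10198, 9944 and 8251 in syngeneic recipients (log2 change 1.94 ± 0.21 SE, adjusted p = 4.25e-07). Tpx2, a spindle assembly factor, went from 612 and 654 to 3450.4, 2565 and 2278. In both genes the lowest syngeneic library was above the highest day 0 library. Tacc3, another spindle gene, rose by 2.10, and the proliferation marker Mki67 went from 1386 and 1361 to 4139.9, 5014 and 2041, lowest of the 3 in the JL027 recipient. Among replication genes, the ligase Lig1 rose by 2.41, the chromatin assembly subunit Chaf1b by 1.48 and the helicase component Cdc45 by 1.87 on the log2 scale.

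Mitotic promoters are known for CCAAT boxes, which bind NF-Y, and S-phase promoters for E2F sites. The table of RefSeq promoters (build GRCm38.p6) held 25 of the 30 mitosis genes, and CCAAT or its reverse complement ATTGG occurred in the 250 bases before the start in 18 of them (72%), against 34.5% of all 27025 genes with a promoter there (first listed start). TTTGAA, the core of the cell cycle homology element, was in 8 of the 25 (32%), against 16.3% of all. TTTGGCGC or TTTCCCGC, the E2F motif, was in 5 of 25 replication promoters (20%), against 1.35% of all. TTCNNNGAA, the STAT dimer motif, was in 2 of 17 promoters of the cytokine list below (11.8%), against 7.18%. Both strands were searched, a match is a description of letters, and factor binding was not measured.

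The promoters of 3 mitosis genes that rose and of 1 replication gene that rose are printed to show these motifs, with matches in capitals: CCAAT or ATTGG in Top2a, Ube2c (a ubiquitin-conjugating enzyme of mitotic exit) and Ccnb2 (cyclin B2), and the E2F motif, on the opposite strand, in Mcm5 (a helicase subunit). In Ube2c 1 CCAAT and 1 ATTGG overlap. Each sequence runs 5′ to 3′ along the gene's strand and ends at the base before the start.
Top2a, chr11:99024190-99024439, minus strand: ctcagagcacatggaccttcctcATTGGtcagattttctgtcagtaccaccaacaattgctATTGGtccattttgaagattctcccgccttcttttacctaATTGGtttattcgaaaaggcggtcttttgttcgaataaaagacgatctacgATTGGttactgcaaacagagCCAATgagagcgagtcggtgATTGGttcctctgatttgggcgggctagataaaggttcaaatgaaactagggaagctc
Ube2c, chr2:164769679-164769928, plus strand: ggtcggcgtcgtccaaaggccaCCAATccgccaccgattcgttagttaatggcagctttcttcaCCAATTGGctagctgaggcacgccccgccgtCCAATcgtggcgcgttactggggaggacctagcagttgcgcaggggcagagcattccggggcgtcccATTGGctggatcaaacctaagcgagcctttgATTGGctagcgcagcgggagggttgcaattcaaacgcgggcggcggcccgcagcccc
Ccnb2, chr9:70421555-70421804, minus strand: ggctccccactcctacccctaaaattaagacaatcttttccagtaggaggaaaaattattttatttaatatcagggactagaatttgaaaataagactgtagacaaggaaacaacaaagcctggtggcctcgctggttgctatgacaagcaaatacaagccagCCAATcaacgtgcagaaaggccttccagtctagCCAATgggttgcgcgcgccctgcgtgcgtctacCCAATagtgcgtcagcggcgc
Mcm5, chr8:75109259-75109508, plus strand: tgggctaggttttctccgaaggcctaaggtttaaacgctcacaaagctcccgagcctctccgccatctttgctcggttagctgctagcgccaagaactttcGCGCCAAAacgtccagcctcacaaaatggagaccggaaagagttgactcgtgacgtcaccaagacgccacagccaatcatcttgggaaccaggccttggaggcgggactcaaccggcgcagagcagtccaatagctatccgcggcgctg
Ube2c rose by 2.15, Ccnb2 by 1.97 and Mcm5 by 1.70 on the log2 scale.

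The CD8 cells did not start from the level of CD4 cells. At day 0 the summed value of the 30 mitosis genes lay between 7949 and 8712 in CD4 and between 25808 and 28187 in CD8 cells. In syngeneic recipients it lay between 94246 and 115592 in CD4 and between 80239 and 96058 in CD8 cells, so that the ranges of these sums overlapped there and stood apart at day 0. As a share of a library's summed values, mitosis genes took 0.0371 to 0.0383% in CD4 and 0.113 to 0.126% in CD8 cells at day 0, and 0.340 to 0.388% and 0.234 to 0.324% after transfer, where the ranges also stood apart, with CD8 below CD4. For the 31 replication genes the day 0 sums lay between 33068 and 35271 in CD4 and between 57258 and 67814 in CD8 cells, and the syngeneic sums between 128369 and 160265 and between 139018 and 174978. The library labelled CD4 syngeneic JL019-2 had the highest CD4 mitosis sum and goes against its label, with Cd4 at 1659 and Cd8a at 1956, where the other CD4 syngeneic libraries had Cd4 at 16526 and 14576 and Cd8a at 58.2 and 114. In CD4 cells all 30 mitosis genes and 28 of the 31 replication genes rose, where 9.90% of all genes were higher and 3.13% lower in CD4 syngeneic cells. The difference between the CD8 and the CD4 change was negative and called for 23 of 30 mitosis genes and 11 of 31 replication genes, and positive and called for none, where 3.05% and 0.573% of all genes were called in these directions. Without that library the negative calls were 22 and 8. Leaving out a day 0 library lowered them to 15 mitosis and 5 replication genes (CD4 JL027), 18 and 7 (CD4 JL019) and 17 and 7 (either CD8 library). For Top2a the CD8 change was smaller than the CD4 change (difference -1.97 ± 0.30 SE, adjusted p = 0.00024). Erythroid markers, from cells that also divide, summed to values between 769 and 1501 in CD4 and between 32039.5 and 36283 in CD8 cells at day 0, and in syngeneic recipients to values between 4921 and 469409 in CD4 and between 3351 and 11185 in CD8 cells. Myeloid sums in CD4 cells lay between 3809 and 4894 at day 0 and between 85383 and 3746570.0 after transfer, and the part of either lineage in the difference was not tested.

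**Figure D2:**
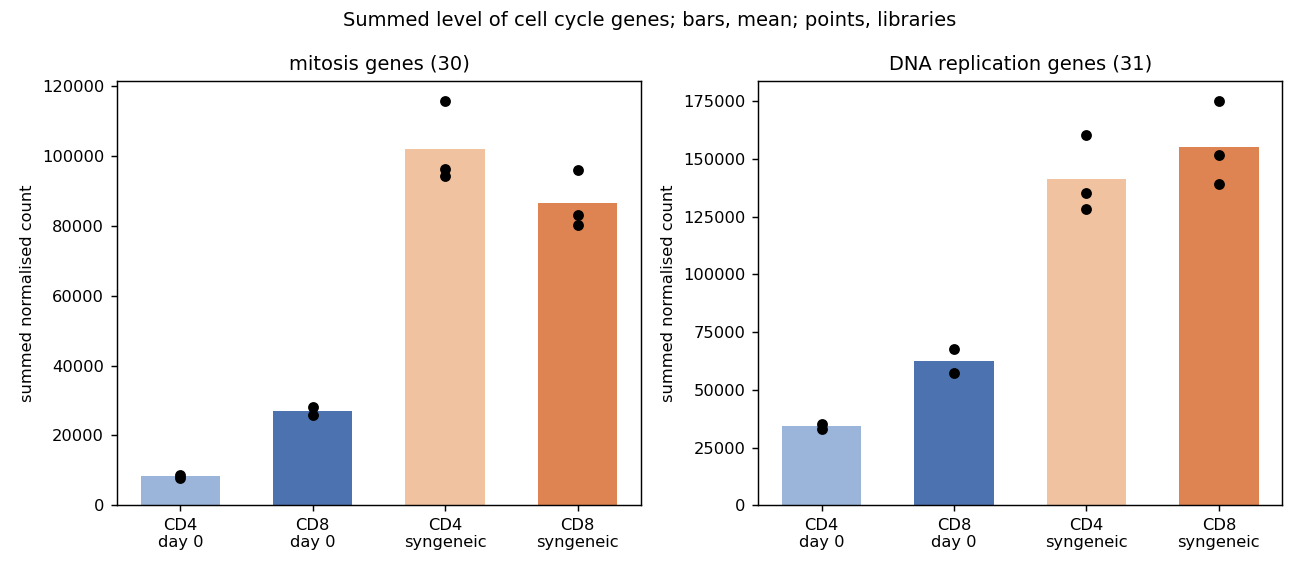
Summed normalised read count of 30 mitosis genes and 31 DNA replication genes in CD4 and CD8 libraries at day 0 and in syngeneic recipients. Bars are means and points are libraries: CD8 cells start above CD4 cells at day 0, and the ranges of the summed values overlap after transfer, which those of the mitosis share of a library's total do not.

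Cytotoxic and effector genes rose as a group. Of 23 measured members 16 rose and none fell, with a median of 1.77 against -0.10 for all genes, of which 13.0% rose and 11.3% fell. Ifng, the cytokine interferon gamma, went from 81.6 and 62.6 to 3581, 2067 and 1042 (log2 change 4.77 ± 0.38 SE, adjusted p = 3.02e-09). Fasl, the ligand of the death receptor Fas, went from 258 and 231 to 2184, 2112 and 3359.7 (log2 change 3.35 ± 0.35 SE, adjusted p = 2.07e-07). Neither gene overlapped between the groups, and among the recipients Ifng was highest in JL019-1 and Fasl in JL027. Gzma, a second granzyme, rose by 3.64 and Tnf, an inflammatory cytokine, by 3.32. Prf1, the pore protein perforin, was at 2249 and 3089.7 and 4932, 4291 and 4295 and did not pass the test (adjusted p = 0.0932, limma). NK markers, whose cells share these genes, lay between 1874 and 2311 in sum at day 0 and between 6596 and 7141 after transfer. Most of this sum in every library was Eomes (1006 and 1253, then 4985, 5311 and 4457), also a member of the memory-like list below. Of the 6 markers, Eomes and Itga2 rose and the NK receptor gene Ncr1 fell, from 85.2 and 91.5 to 6.71, 16.9 and 20. The part of NK cells was not tested. Without the day 0 JL019 library 12 of the 23 rose.

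Of 23 effector differentiation genes 12 rose and 1 fell (median 1.49), beside 13.0% higher and 11.3% lower of all genes. S100a4, a calcium-binding protein of motile effector cells, went from 154 and 233 to 2755, 2274 and 4565 (log2 change 4.01 ± 0.41 SE, adjusted p = 1.63e-07). Anxa2, a membrane-binding annexin, went from 1705 and 2364 to 13778, 10419.9 and 17215, and Vim from 3563 and 4549 to 20595, 16474 and 26473. All 3 were highest in the syngeneic JL027 library and lowest of the recipients in JL019-2. Myeloid cells also express these genes. The myeloid sums given above were also higher in every recipient, at 44448, 58188 and 68667, but were lowest of the recipients in JL019-1. They were carried by S100a8, S100a9 and Lyz2 (2834 and 3757, then 10276, 13754 and 13870.4, not called). Of the 15 myeloid markers 5 had negative estimates. Adgre1 (37.8 and 37.4, then 10.8, 8.28 and 20.9) and Ctsg (305 and 299, then 102, 133 and 45.5) were below day 0 in every recipient. The part of myeloid cells was not tested. The member that fell was Zeb2, a transcription factor of terminal effector cells.

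Genes known to mark memory-like cells in lymphopenia rose in most cases. Of 22 members 15 rose and 1 fell (median 1.47), beside 13.0% higher and 11.3% lower of all genes; without the day 0 JL019 library 7 rose and 1 fell. Ly6a, the surface antigen Sca-1, went from 1972 and 2863 to 12714, 12632 and 15804 (log2 change 2.52 ± 0.30 SE, adjusted p = 1.92e-06). Cxcr3, a receptor for interferon-induced chemokines, went from 2862 and 3712 to 13131, 11096 and 17546 (log2 change 2.07 ± 0.25 SE, adjusted p = 2.21e-06). The transcription factor genes Eomes and Tbx21 rose by 2.13 and 2.35 on the log2 scale. Eomes is also among the NK markers given above, and the part of NK cells was not tested. The hyaluronan receptor Cd44, a standard memory marker, rose by 0.85 on the log2 scale, from 2016 and 2181 to 3864, 4376 and 3172.

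Naive-cell genes fell less uniformly. Of 20 naive and lymph node homing genes 4 fell and none rose, a share of 20% where 11.3% of all genes fell, with a median of -0.60. Actn1, an actin crosslinker of naive cells, went from 2054 and 2403 to 409, 699 and 343 (log2 change -2.27 ± 0.49 SE, adjusted p = 0.00189). Bach2, a repressor of effector genes, went from 1462 and 1689 to 598, 717 and 268, and Lef1, a partner of Tcf7, from 9361 and 12508 to 4949, 4860.0 and 5946. The recipients were below both day 0 libraries in all 3 genes. Without either day 0 library 1 of the 20 was called, without syngeneic JL019-1 2, and after quantile normalisation 8. With the mean value as covariate 1 fell, 1 rose and the median was -0.14. The homing receptor gene Ccr7 was at 20003 and 27448 and 10859, 8998 and 13757 and the naive-cell factor gene Tcf7 at 15101 and 14872 and 11003, 13003 and 8215. These 2 did not pass the test (adjusted p = 0.107 and 0.544, limma), although every recipient was below both day 0 libraries, and the sign of Tcf7 changed with the mean value as covariate.

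Among 25 chemokine receptors and integrins 7 rose and 4 fell, beside 13.0% and 11.3% of all genes. Ccr9, the gut-homing receptor, went from 5415 and 7588 to 320.4, 281 and 321 (log2 change -4.38 ± 0.40 SE, adjusted p = 2.51e-08). Itga4, the alpha4 chain of the integrins that bind VCAM-1 and MAdCAM-1, went from 5127 and 6245 to 633, 818 and 754 (log2 change -2.95 ± 0.32 SE, adjusted p = 4.25e-07). The 3 recipients were within a narrow range of each other in both genes and far below day 0. Ccr2, a receptor for monocyte chemoattractants, rose in the opposite direction, from 911 and 956 to 7713, 7604 and 6614 (log2 change 2.97 ± 0.33 SE, adjusted p = 4.76e-07). Ccr9 is also a marker of plasmacytoid dendritic cells, whose marker Siglech was at 38.5 and 20.3 and 28.9, 47.3 and 42.3. With the day 0 JL019 library left out, 4 members rose and 4 fell.

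The common gamma chain cytokine list gave 8 members that rose and 1 that fell of 19 (median 0.62), beside 13.0% higher and 11.3% lower of all genes. With the mean value as covariate 12 rose, 1 fell and the median was 1.27. Cish, a STAT5-induced inhibitor of cytokine and TCR signalling, went from 150.1 and 117 to 2379, 2221 and 2938 (log2 change 4.22 ± 0.43 SE, adjusted p = 1.74e-07). Socs2, another inhibitor of the same family, went from 65.7 and 57.6 to 377, 275 and 528 (log2 change 2.61 ± 0.30 SE, adjusted p = 1.02e-06). Every recipient was above day 0 in both. The receptor chains moved in different directions. Il15ra, which presents and binds interleukin-15, rose from 327 and 259 to 893, 826 and 1069 (log2 change 1.66 ± 0.25 SE, adjusted p = 3.83e-05), Il2rb, the shared beta chain for interleukin-2 and interleukin-15, by 1.54, and Il2ra, the high-affinity interleukin-2 chain, by 1.86. Il7r, the interleukin-7 receptor chain, fell by 1.41 on the log2 scale, from 10108 and 12484 to 3358, 3758 and 5957 (adjusted p = 0.0292, limma). Without the day 0 JL019 library 5 of the 19 rose and none fell.

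Of 21 apoptosis regulators 3 rose (14.3%, against 13.0% of all genes). Bcl2l1, which encodes the survival protein Bcl-xL, went from 520.1 and 564 to 2564, 2425 and 1991 (log2 change 2.09 ± 0.36 SE, adjusted p = 0.00016), and Bax, a pro-death member, rose by 1.29. Without syngeneic JL019-2 6 of the 21 rose, and without syngeneic JL027 1. Bcl2a1a was at 1.69 and 0 and 11.3, 4.18 and 20.8 and belongs to a family of near-identical copies, so its value is uncertain. Of 17 p53 targets 4 rose and none fell, beside 13.0% and 11.3% of all genes, among them the mitotic genes Ckap2 (1.23) and Gtse1 (2.01) and Perp (2.70), which was at 4.1 and 4.83 and then at 52.7, 30.2 and 25.8 after transfer.

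Of 23 genes of the TCR complex and its proximal signalling 4 rose and none fell (17.4%, against 13.0% of all genes), with a median of 0.41. They included the adaptor Lat, from 6426 and 7388 to 16835, 12204 and 21191 (log2 change 1.24 ± 0.33 SE, adjusted p = 0.00924), the kinase Fyn (1.25) and the phosphatase Ptpn6 (0.72). Of 25 immediate early genes, which TCR contact is known to induce, 7 rose and none fell, with a median of 1.00. Their summed value was 54472 and 67049 at day 0 and 177548, 133793 and 75429 in recipients, so that JL027 stood nearer to day 0 than the JL019 recipients did, and the JL027 pair alone gave a median of 0.16. The orphan receptor Nr4a3 went from 9.7 and 34.9 to 141, 85.7 and 67.1 (log2 change 2.27 ± 0.57 SE, adjusted p = 0.00595), and Myc, which drives growth, from 2511 and 2987 to 5421, 5741 and 5646 (log2 change 1.03 ± 0.31 SE, adjusted p = 0.0175). Jund rose by 1.12. Without the day 0 JL019 library no member of either list was called. Without day 0 JL027 3 immediate early and 2 TCR pathway genes rose, without syngeneic JL019-1 2 and 1, and without syngeneic JL027 10 and 2. Quantile normalisation turned the TCR pathway median to -0.12, with 1 gene lower and none higher, and the mean value as covariate gave 9 higher, none lower and a median of 0.85. For the immediate early genes these settings gave 2 and 4 higher. Array weights gave 18 higher and 1 lower of the 25, where 3644 of all 16741 genes were higher and 3759 lower.

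Of 17 measured inhibitory receptor and exhaustion genes 5 rose and 3 fell, where 13.0% of all genes rose and 11.3% fell, with a median of 0.15. Entpd1, the ectoenzyme CD39, went from 214 and 94.3 to 1110.3, 1194 and 914 (log2 change 2.90 ± 0.37 SE, adjusted p = 3.78e-06). Cd160, a receptor of cytotoxic cells, went from 1785 and 2338 to 11244, 8620.4 and 17217 (log2 change 2.54 ± 0.38 SE, adjusted p = 2.94e-05). Ikzf2, the factor Helios, fell from 508 and 719 to 78.9, 133 and 82.3 (log2 change -2.65 ± 0.43 SE, adjusted p = 8.24e-05). In each of the 3 the groups stood apart. Of 18 killer lectin-like receptors, which tune killing in NK and memory CD8 cells, 5 rose and none fell (median 1.35). Klrc1, which encodes the inhibitory chain NKG2A, went from 763 and 1014 to 7419, 6780.4 and 10145 (log2 change 3.18 ± 0.32 SE, adjusted p = 1.31e-07), Klre1 from 222 and 203 to 2439, 2007 and 3329, and Klrc3 from 2.58 and 0.949 to 45.3, 38.2 and 22.1. All 3 were higher in every recipient than at day 0, beside the NK markers given above. Of the 18, 3 rose without the day 0 JL019 library, and with the covariate the list's median was -0.09.

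Many glycolysis and oxidative phosphorylation genes were higher in the recipients. Of 20 glycolysis genes 12 rose and none fell (median 1.20), among them Gapdh, from 15124 and 21716 to 76472, 58643 and 96002 (log2 change 2.06 ± 0.26 SE, adjusted p = 3.6e-06), Eno1 (1.60) and Ldha (1.41), which makes lactate. Of 38 oxidative phosphorylation genes 28 rose and none fell (median 1.03), among them the ATP synthase subunits Atp5b, from 29882 and 37771 to 71508, 59162 and 90392 (log2 change 1.11 ± 0.18 SE, adjusted p = 9.78e-05), and Atp5a1 (0.91), and the complex I subunit Ndufv1 (0.93). The respiratory count depended on the choice of libraries and scaling. Without the day 0 JL019 library 1 was called and 7 glycolysis genes rose, where 623 of all 16741 genes were higher. Without syngeneic JL027 9 were called, where 1189 of all genes were higher. After quantile normalisation 12 were called, where 1977 of all genes were higher. With the library's mean value as covariate 5 were called and the respiratory median was 0.10, where 1821 of all genes were higher. Of 70 ribosomal protein genes 4 rose (5.71%, below the 13.0% of all genes), with a median of 0.48 and changes of 1.04 for Rpl12, 1.16 for Rpl28 and 1.14 for Rpl38; many have processed copies that can share reads. Without the day 0 JL019 or the syngeneic JL027 library none was called, and without syngeneic JL019-2 10 rose. Their direction flipped with scaling: the median was -0.06 after quantile normalisation, with 1 gene higher and 5 lower, and -0.45 with the covariate, with 13 lower.

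Change also followed gene length. Over the 15855 tested genes with a span in the RefSeq annotation, the shortest of 4 equal bins (median 2238 bases) had a median log2 change of 0.34 and the longest (median 99763 bases) one of -0.65. The slope of a library's deviation on log2 span was 0.058 and 0.012 at day 0 and -0.058, -0.0083 and -0.10 in the recipients. After this trend was removed from each library, an alternative added once the data had been seen, 3928 genes were called, 3567 of them shared with the 4053, and 27 respiratory, 26 mitosis and 16 cytotoxicity genes rose. Over the 25 immediate early genes the calls, 7 higher before, were then 3 higher and 1 lower.

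Type I interferon response genes rose in syngeneic recipients. Of 30 such genes 17 rose and none fell (median 1.02), and without the day 0 JL019 library 8 rose. The JL019 libraries alone gave a median of 1.47 and the JL027 pair alone one of 0.33. Mx1, an antiviral GTPase, was at 216 and 136 and then 986, 2011 and 767 (log2 change 2.74 ± 0.39 SE, adjusted p = 2.15e-05), highest in JL019-2. Isg15, a ubiquitin-like modifier, went from 452 and 679.9 to 2439, 2607 and 1988 (log2 change 2.07 ± 0.36 SE, adjusted p = 0.000219), and the nucleic acid sensor Zbp1 from 1674 and 2007 to 5465, 5437 and 6216. All recipients were above both day 0 libraries in these 3. Of 17 GTPases induced by interferon gamma 2 rose (11.8%, against 13.0% of all genes): Igtp by 0.82 and Gbp3 by 0.95. Neither was called without day 0 JL019 or without syngeneic JL019-1, 1 was without either other recipient, and the list's median of 0.15 was -0.16 after quantile normalisation. With the mean value as covariate 7 of the 17 rose and the median was 0.95.

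Of 29 sterol and fatty acid synthesis genes 3 rose and 3 fell, near the 13.0% and 11.3% of all genes, with a median of -0.05. The desaturase Scd1 fell from 65.8 and 85.4 to 0.964, 4.2 and 1.18 (log2 change -4.76 ± 1.05 SE, adjusted p = 0.00229) and the desaturase Fads2 from 307 and 247 to 25, 40.3 and 21.2 (log2 change -3.26 ± 0.90 SE, adjusted p = 0.0111), while the sterol enzyme Nsdhl rose by 0.95. Of the 29, 1 fell and none rose without the day 0 JL019 library. Scd1 and Fads2 fell alongside the erythroid and B lineage markers, and the part of those cells was not tested.

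**Figure D3:**
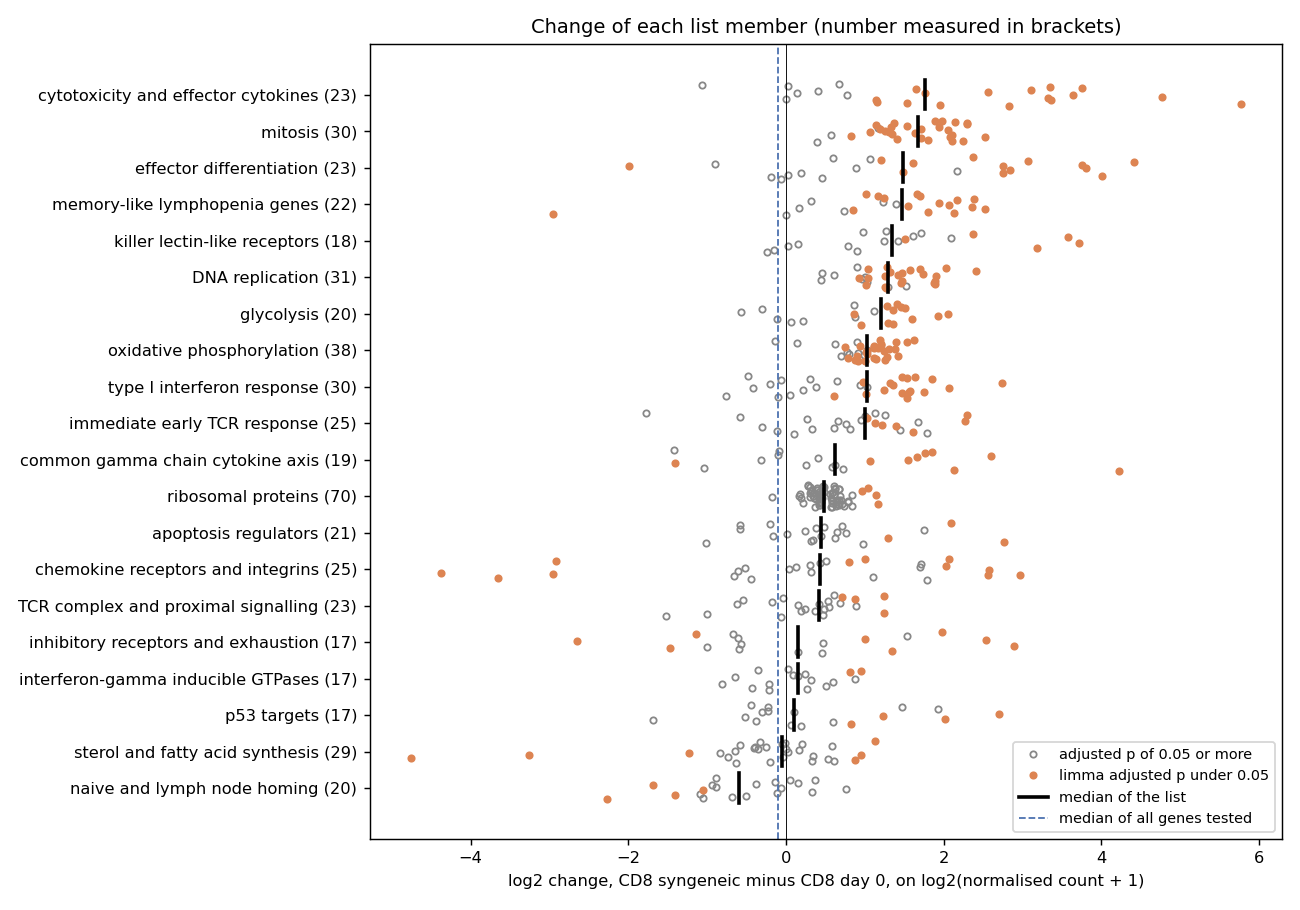
Log2 change between syngeneic and day 0 CD8 cells for every measured member of 20 gene lists, filled where the limma adjusted p is under 0.05, with list medians (black) and the median of all genes (dashed). The medians of the cytotoxicity (1.77), mitosis (1.67) and effector differentiation (1.49) lists lie farthest to the right and that of the naive list (-0.60) farthest to the left, while single members of other lists lie farther out.

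The CD8 change differed from the CD4 change of the same experiments in 607 genes (3.63%), 96 higher and 511 lower; centring each library on its median gave 163 higher and 356 lower. Fasl was the gene with the lowest p among those with the larger CD8 increase: CD4 libraries were at 905 and 797 at day 0 and at 569, 319 and 679.6 after transfer, and the log2 difference was 4.12 ± 0.49 SE, adjusted p = 2.24e-05. Asb2, a subunit of a ubiquitin ligase, rose in CD8 cells from 43.3 and 32.8 to 203, 216 and 149.7 and was at 479 and 399 and 309, 235 and 209 in CD4 cells (difference 3.10 ± 0.47 SE, adjusted p = 0.000247). Itm2a, a membrane protein of T-cell activation, rose in CD8 cells from 2461 and 3119 to 5806, 4776 and 9441 and was at 5305 and 4720.4 and 2019, 831 and 2080.2 in CD4 cells (difference 2.93 ± 0.45 SE, adjusted p = 0.000247). In these 3 genes the CD8 and CD4 means moved in opposite directions. Cish (3.16), Cd160 (2.96), Klrc1 (2.45) and Cxcr3 (1.98) also rose more in CD8 cells.

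The lower side held Ell2 (difference -4.39 ± 0.45 SE, adjusted p = 4.16e-06), Scin (-5.24) and the cyclin gene Ccne2. Ccne2 was at 698 and 801 and 1299, 1024 and 1123 in CD8 cells, without a call for that change, and went from 103 and 103 to 1231, 2261 and 1606 in CD4 cells (difference -3.37 ± 0.38 SE, adjusted p = 2.18e-05). The library labelled CD4 syngeneic JL019-2 carried RNA of other lineages, with myeloid markers summing to 3746570.0; without it 490 genes differed. A fit to the 4 CD4 and CD8 groups alone called 32, and the counts without a single day 0 library ran from 263 (CD8 JL019) and 276 (CD4 JL019) to 280 (CD4 JL027) and 500 (CD8 JL027).

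The direct test against allogeneic recipients placed the syngeneic CD8 values. Between the 2 hosts 3524 genes (21.1%) differed, 1741 higher (10.4%) and 1783 lower (10.7%) in allogeneic recipients. Of the 23 cytotoxicity genes 16 were higher and 6 lower with alloantigen, and of the 30 mitosis genes 24 were higher and none lower. Gzmb reached 119460.0 to 180755 in the 4 allogeneic libraries (log2 difference 3.24, adjusted p = 5.4e-10), and Itga4, low in syngeneic cells, stood at 7287 to 10448 (log2 difference 3.64, adjusted p = 6.77e-11). Other genes that rose in syngeneic cells were lower in allogeneic cells. Of the 30 type I interferon genes 20 were lower there and 1 higher, with Isg15 at 533 to 693 (log2 difference -1.96, adjusted p = 1.86e-05). Cish was at 390.4 to 1108 (log2 difference -1.68, adjusted p = 0.00116), Myc at 861 to 1841 (log2 difference -2.10, adjusted p = 5.52e-07) and Klre1 at 499.7 to 820.4 (log2 difference -2.05, adjusted p = 0.014). No oxidative phosphorylation gene of the 38 differed between the hosts at an adjusted p under 0.05.

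The TCR repertoire stayed diverse. The TCR libraries held 13193 to 25255 reads of the beta chain (TRB) and 19350 to 32560 of the alpha chain (TRA) in the 5 samples, and each was drawn down to 8194 TRB reads for comparison. A clonotype is a V gene, a J gene and a CDR3, and clonality runs from 0 for even clonotypes to 1 for a single clone. TRB clonality was 0.00852 and 0.00740 at day 0 and 0.0108, 0.0108 and 0.0162 in syngeneic recipients (means 0.00796 ± 0.00079, SD, n = 2, and 0.0126 ± 0.0031, SD, n = 3). Every recipient was above both day 0 libraries, and a two-sided exact permutation test gave p = 0.2, the smallest that 3 against 2 libraries allow. Within prefixes the difference was 0.00227 for JL019 and 0.00877 for JL027. Over the same reads the number of distinct TRB clonotypes was 6821 and 7025 at day 0 and 6630, 6694 and 6168 after transfer (exact permutation p = 0.2). Allogeneic CD8 libraries lay far from these, at clonalities of 0.128 to 0.161 and 2151 to 2723 clonotypes. CD4 syngeneic libraries lay between, at 0.0358 to 0.0785, a difference from CD8 that was not tested. For TRA, clonality means were 0.0380 at day 0 and 0.0442 in recipients (exact permutation p = 0.4).

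Part of the JL019-1 TRB repertoire was shared with the CD4 library of that recipient. The syngeneic CD4 and CD8 JL019-1 libraries had 894 TRB clonotypes in common, which took 22.1% of the CD4 and 7.93% of the CD8 reads, against 300 in common between CD4 JL019-1 and CD8 JL019-2. The TRBV31 clonotype with TRBJ2-7 that led the CD8 library with 25 of 21176 reads had 210 of 15643 reads in the CD4 library. Of 48 CD8 JL019-1 clonotypes with at least 10 reads, 22 were in that CD4 library and 6 had a higher share there. The TRA chain did not show this, with 535 shared clonotypes in the same pair and 577 with CD8 JL019-2. Carry-over between these TRB libraries was not tested, and the leading clonotype and the count of large clonotypes of CD8 JL019-1 are given with that limit. With the clonotypes of the same-label CD4 library left out of each CD8 library, the TRB clonality difference was 0.00446 and the clonotype difference -438 (exact permutation p = 0.2 for both). Without JL019-1 the clonality difference was 0.00554. Without syngeneic JL027 it was 0.00283, and the clonotype difference was -261.

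**Figure D4:**
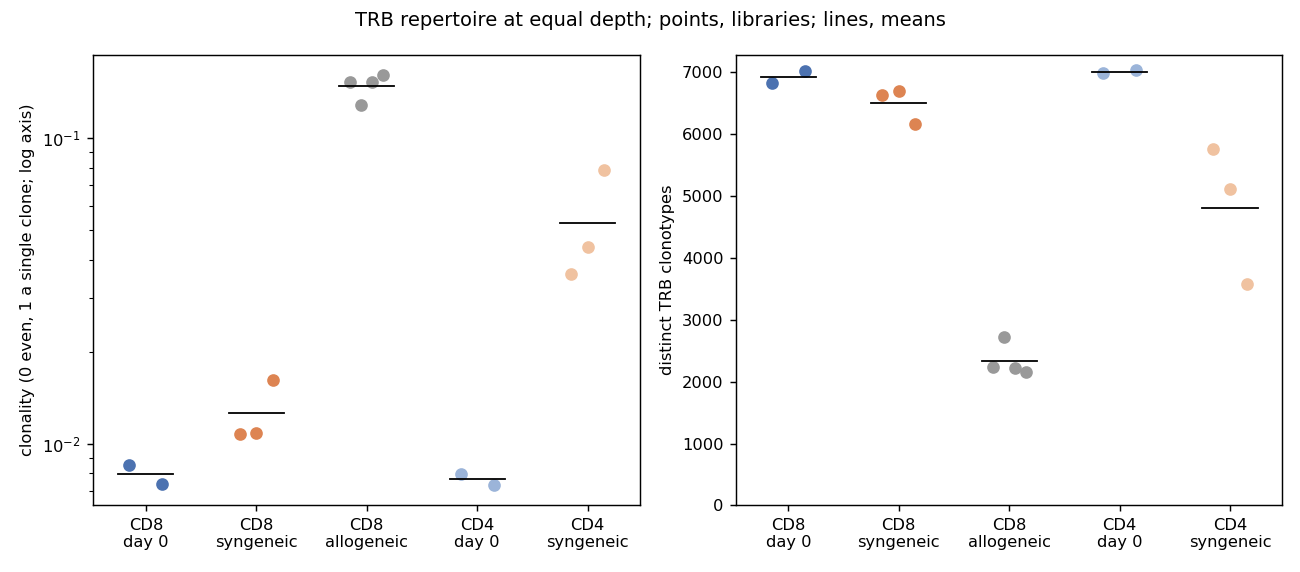
TRB clonality (log axis) and number of distinct TRB clonotypes at 8194 reads per library in CD8 and CD4 groups, with lines at the means. CD8 syngeneic libraries sit just above day 0 in clonality, and CD8 allogeneic libraries at 0.128 to 0.161.

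No clone dominated a syngeneic library. The most abundant TRB clonotype of the syngeneic JL027 library, a TRBV16 with TRBJ2-4, had 86 of 25255 reads, or 0.341% (95% Wilson interval 0.276 to 0.420%), and was not seen in the other 4 libraries. In JL019-1 it was a TRBV31 with TRBJ2-7 at 25 of 21176 reads, tied with a second clonotype and also absent from the other 4 CD8 libraries. In JL019-2 and in both day 0 libraries it was one and the same TRBV16 with TRBJ2-7, with 11 and 27 reads at day 0 and 15, 25 and 47 in the recipients. The top TRA clonotype was the same TRAV19 with TRAJ56 in all 5 libraries, at 0.953 to 1.44% of reads. These intervals and zeros cover counting error only, since PCR reads are not independent molecules, and a count of 0 allows up to 0.0227% of reads in the shallowest library. The 10 largest TRB clonotypes took 0.629 and 0.640% of reads at day 0 and 0.826, 1.21 and 1.79% in recipients, in libraries of unequal depth.

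Clonotype sharing had similar ranges within and between the groups, and was lower for TRB than for TRA. Pairs share libraries, so no test was made. The Morisita-Horn index, which is 1 for identical repertoires, was 0.123 between the day 0 libraries, 0.101 to 0.149 between day 0 and recipients, and 0.123 to 0.154 among recipients. For TRA the index ran from 0.499 to 0.648 over the 10 pairs. In all 5 libraries 103 TRB clonotypes recurred, and they took 2.08 to 2.94% of the reads. The mean CDR3 length over TRB clonotypes was 13.97 and 13.99 residues at day 0 and 13.92, 13.93 and 13.92 in recipients.

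V segment use did not shift past the test. Of 21 TRBV segments with a mean of at least 0.5% of clonotypes 0 were called (0%; 2 at an unadjusted p under 0.05, limma), and of 20 TRAV segments 0 were called (0%; 0 at an unadjusted p under 0.05). The largest TRBV increase was that of TRBV12-2, from 1.32 and 1.51% of clonotypes at day 0 to 2.07, 1.74 and 2.52% in recipients (log2 change 0.54 ± 0.24 SE, adjusted p = 0.448). TRBV2 changed by 0.50 and TRBV20 by 0.36, and in all 3 segments the recipients lay above day 0. On the other side were TRBV23 (-0.18), TRBV1 (-0.17) and TRBV17, which went from 8.82 and 9.53% to 8.07, 8.45 and 8.20% (-0.15). Recipients and day 0 were fully separate in 9 of 21 TRBV (42.9%) and 9 of 20 TRAV segments (45.0%), where 51.5% of genes were in the RNA. TRBV16 was the most used TRBV segment of the 5 libraries, at 42.9 and 41.8% of clonotypes at day 0 and 39.0, 43.5 and 35.0% in recipients. TRAV13D-2 differed by 0.31 from 6.25 and 5.44% to 6.99, 6.88 and 7.97%, without a call, and TRAV4-2 had the largest TRAV decrease (-0.38). TRAV segments with a D in the name are near-identical copies of others, so their shares are uncertain.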

How the data were processed

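RNA and TCR libraries were made from full-length cDNA (SMARTer v4, Nextera XT, and nested PCR for TCR), per the labels' protocols. The submitters' processing notes name FastQC 0.11.7, kallisto and DESeq2 and the builds GRCm38 and mm10. The RNA table holds a signal per gene that the authors deposited, counts normalised between libraries, and these are not whole reads. For the TCR, each deposited row is a clonotype (V gene, J gene, CDR3) of 1 library with its raw read count; no molecular identifiers are given.

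The test was limma 3.58.1 (R 4.3.3; trend and robust) on log2(value + 1) of 31 libraries in 10 groups, with Benjamini-Hochberg adjustment over 16741 genes at 0.05. Fold changes of low genes are understated on this scale. No filter removed a gene. V segments were tested by limma on log2(percent of clonotypes + 0.1). TRB clonality was the mean of 20 draws of 8194 reads, compared by exact permutation. The limma and TCR computations were tested on simulated data.

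The members, 20 gene lists and 12 marker lists were chosen with earlier results of these data known. Named genes were Cd8a, Cd8b1, Cd4 and Foxp3, up to 3 called genes of lowest p per list, the 8 rising and 8 falling genes of lowest p without overlap and with a mean of at least 50, and the 3 genes of lowest p in each direction for the CD8 and CD4 difference, without predicted, receptor segment, mitochondrial and, in the last 2 steps, ribosomal genes. A further 20 genes, such as Il7r, Ccr7, Mki67, Jchain and S100a8, were named after their values were seen.

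The TCR tables call the label prefix an experiment, so a fit with the prefix as replicate block was made as an alternative. Deviations from the group means correlated across day 0 and syngeneic libraries of 1 prefix at -0.09, 0.34 and 0.24. Other alternatives were pseudocounts, filters, scaling, array weights, fewer groups, gene span and leaving out each library.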

Additional observations from a re-analysis of the deposited data

Results flagged for a closer look

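The syngeneic change differed between CD8 and CD4 cells in 607 genes by the test of the difference itself (limma), and 33 of the named genes were among them. The values are log2 change in CD8 minus log2 change in CD4. Genes with a positive difference were Cxcr3 1.98, Fasl 4.12, Entpd1 2.41, Cd160 2.96, Cish 3.16, Klrc1 2.45, Fyn 2.10, Bspry 2.68, Asb2 3.10, Itm2a 2.93 and Il2ra 2.52. The cell cycle genes Cdc45 -1.50, Tacc3 -1.13, Top2a -1.97, Tpx2 -2.08, Ckap2 -2.07, Ccne2 -3.37, Mki67 -2.79, Ccnb2 -1.98 and Ube2c -2.36 had a negative difference. So did the markers of other lineages Cd79a -3.21, Klf1 -4.89, S100a8 -6.06 and S100a9 -5.61. The remaining genes with a negative difference were Itga4 -2.12, Fads2 -5.15, Ccr9 -2.43, Scin -5.24, Ell2 -4.39, Cd81 -3.32, Nqo1 -5.31, Septin8 -4.08 and Tle1 -2.15. Without the CD4 syngeneic JL019-2 library, which carried RNA of other lineages, 31 of the 33 were still called. The other 2, Fads2 and Cd79a, had differences of -4.44 (adjusted p = 0.0549) and -2.76 (adjusted p = 0.108) there and did not pass the test. Groups of 2 or 3 libraries were not tested for single outlying values.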

How the results depend on the processing

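With 2 and 3 libraries a group, the number of changed genes depended on which libraries were used. The 4053 changed genes became 1001 to 4869 when 1 library was left out, 2329 in a fit to the 2 groups alone, 7403 with array weights, 591 with prefix JL019 alone and 478 with JL027 alone. The 607 genes that differed between CD8 and CD4 became 263 to 883 when 1 library was left out, 32 in a fit to the 4 groups alone, 2098 with array weights, 1298 with the mean value as covariate, 1379 with it and the replicate block, 2 with prefix JL019 alone and 21 with JL027 alone. The cause was not tested. With the label prefix as replicate block 4158 and 645 genes were called, 0 V segments of either chain were called, and the TRB clonality and clonotype differences were 0.00552 and -508; the block changed the call of 1 named gene, Ccne2, which passed (adjusted p = 0.0485, limma). Centring moved the median change of all genes from -0.10 to 0.01, and no gene was removed by the filter. The difference in TRB clonotype number changed sign with clonotypes of at least 2 reads (68.7), and 1 TRAV segment was called in a fit to the 2 groups alone, lower in recipients. Over the alternatives for the named genes, 1796 results kept their call and direction, 199 lost it, 9 gained it and 11 reversed sign. The reversals were Cd8a (-0.70 with the covariate and also with the covariate and block), Cd8b1 (-0.31 after quantile normalisation, -0.77 with the covariate, with and without block), Cd4 (0.12 with the covariate, with and without block, 0.032 with array weights, -1.60 to 0.025 over single libraries left out, the last without day 0 JL019) and Tcf7 (1.03 with the covariate, with and without block). RNA read depth is unknown, so no counting error can be given for low values.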
